A study of Homo sapiens with 18 samples.

Results

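The genes described are 10 components and reported targets of Wnt/β-catenin signalling: CTNNB1, AXIN2, LGR5, NKD1, RNF43, ZNRF3, ASCL2, TCF7, LEF1 and SP5. They are listed by gene symbol, and all 10 were found among the 38055 genes of the whole transcriptome RNAseq (RNAseq) table. HCT116 cells, a human colorectal carcinoma line of epithelial type, were sampled as wild-type (WT) cells with no treatment or edited allele on Day 3 and Day 5 after seeding. Day 3 cultures stood at 50% confluency and Day 5 cultures at 250%, where confluency above a full monolayer means stacked layers of cells. Each day had 3 libraries of whole cell RNA that the labels call biological replicates. Day 7 RNAseq values were not analysed here. All libraries came from 1 cell line, so the values describe that line only. HCT116 carries an activating mutation of CTNNB1, which is shared by both days.

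β-catenin, the product of CTNNB1, is a cell adhesion protein and a transcriptional coactivator. In the absence of a Wnt signal it is marked for degradation by a destruction complex built on the scaffold proteins AXIN and APC. When a Wnt ligand binds Frizzled and LRP receptors, the complex is inhibited and β-catenin enters the nucleus, where it binds DNA through TCF/LEF factors. Many of its target genes are brakes on the same pathway, and AXIN2 transcript is a common readout of its activity in intestinal epithelium. β-catenin is controlled largely through the stability of the protein, which RNAseq does not measure.

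The TCF/LEF factors recognize a short core sequence in the promoters and enhancers of their targets. Its 4 forms searched here were CTTTGAA first, then CTTTGAT, besides these CTTTGTA, and as the last form CTTTGTT, on both strands of RefSeq promoters on GRCh38.p14, each taken as the 250 bases before and 50 bases after a transcription start. These forms do not overlap each other in the stretches printed here. A match is a description of the letters and not evidence of binding. At least 1 form was found in 13.8% of 35116 promoters, and 3 or more in 0.179%. Promoters were matched for SP5, CTNNB1, LEF1, TCF7 and RNF43. No promoter entry was at hand for AXIN2, LGR5, NKD1, ZNRF3 and ASCL2, which were therefore not searched. SP5 held 3 matches, at 148, 109 and 84 bases upstream of its start, and the later of 2 TCF7 starts held 1, at 50 bases upstream. The CTNNB1, LEF1 and RNF43 windows and the other TCF7 start held none of these letters. The stretches with matches are shown because they carry the factor's core sequence in 2 of the genes measured below, with the core in capitals. The SP5 stretch is chr2:170715178-170715270 and the TCF7 stretch is chr5:134123557-134123585, both on the plus strand.
SP5: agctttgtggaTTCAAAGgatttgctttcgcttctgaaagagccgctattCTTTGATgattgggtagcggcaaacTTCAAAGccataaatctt
TCF7: ggccccactggAACAAAGgaggagagagg

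The 10 genes lie on 9 chromosomes of GRCh38 and all are annotated as protein coding. CTNNB1 (ENSG00000168036) is at chr3:41194741-41260096 on the plus strand and AXIN2 (ENSG00000168646) at chr17:65528563-65561648 on the minus strand. NKD1 (ENSG00000140807) is at chr16:50548396-50649249 on the plus strand. RNF43 (ENSG00000108375) is at chr17:58353676-58417595 on the minus strand and ZNRF3 (ENSG00000183579) at chr22:28883572-29057488 on the plus strand. TCF7 (ENSG00000081059) is at chr5:134114681-134151865 and SP5 (ENSG00000204335) at chr2:170715337-170718078, both on the plus strand. LGR5 (ENSG00000139292) is at chr12:71439798-71586310 on the plus strand. LEF1 (ENSG00000138795) is at chr4:108047545-108168956 and ASCL2 (ENSG00000183734) at chr11:2268498-2270588, both on the minus strand.

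The deposited values are normalized read counts, that is, reads per gene divided by 1 scaling factor per library, and whole reads could be recovered from them. The libraries held 27470978 to 56689369 reads on genes, and both extremes were Day 3 libraries. The 10 most abundant genes took 11.8 to 12.9% of the normalized total on Day 3 and 8.73 to 9.03% on Day 5. Of 9 epithelial markers, 8 had a mean of at least 10, and their summed level per length was 345 to 422 on Day 3 and 907 to 935 on Day 5. Of 8 epithelial markers tested as described below, 7 were higher on Day 5, beside 29.3% of all genes tested. Among them was KRT19 (log2 fold change 1.98, limma adjusted p = 0.000284). EPCAM, an epithelial adhesion molecule, was the 1 that did not pass, with means of 7227 and 7236 normalized reads. The part of these marker levels in the results below was not tested. Summed levels of blood cell markers were 0.365 to 0.494 and 0.399 to 0.403. Those of endothelial markers were 0.0497 to 0.0927 and 0.144 to 0.250, and those of fibroblast markers, mostly COL1A1, were 1.50 to 1.98 and 3.68 to 3.89. Of the 6 blood cell markers only HBB reached a mean of 10. In whole cultures, fewer cells expressing a gene and less RNA of it per cell cannot be told apart.

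Of the 10 genes, 7 passed the filter of at least 10 normalized reads in at least 3 of the 6 libraries, and 3 (LGR5, LEF1 and ASCL2) did not. Differences were tested with limma on log2(normalized read count + 1) over all 20129 genes that passed, with Benjamini-Hochberg adjustment and a threshold of 0.05. Fold changes are Day 5 over Day 3 on that log2 scale, which understates the change of genes with few reads. NKD1, ZNRF3 and TCF7 were higher on Day 5, CTNNB1 and AXIN2 were lower, and RNF43 and SP5 did not pass the test. Across all genes tested, 56.9% were called in either direction, 29.3% higher and 27.6% lower, so a call on a single gene is common in this comparison. In each of the 5 called members the Day 3 and Day 5 libraries were fully separated, as in 65% of all genes tested. All Day 5 libraries were above Day 3 for 3 members and 33.4% of all genes, and below for 2 members and 31.7%. The median fold change was 0.14 for the 7 members and 0.01 for all genes. None of the 7 reached a 2-fold change by limma, edgeR or DESeq2, whether or not p was adjusted.

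**Figure D1:**
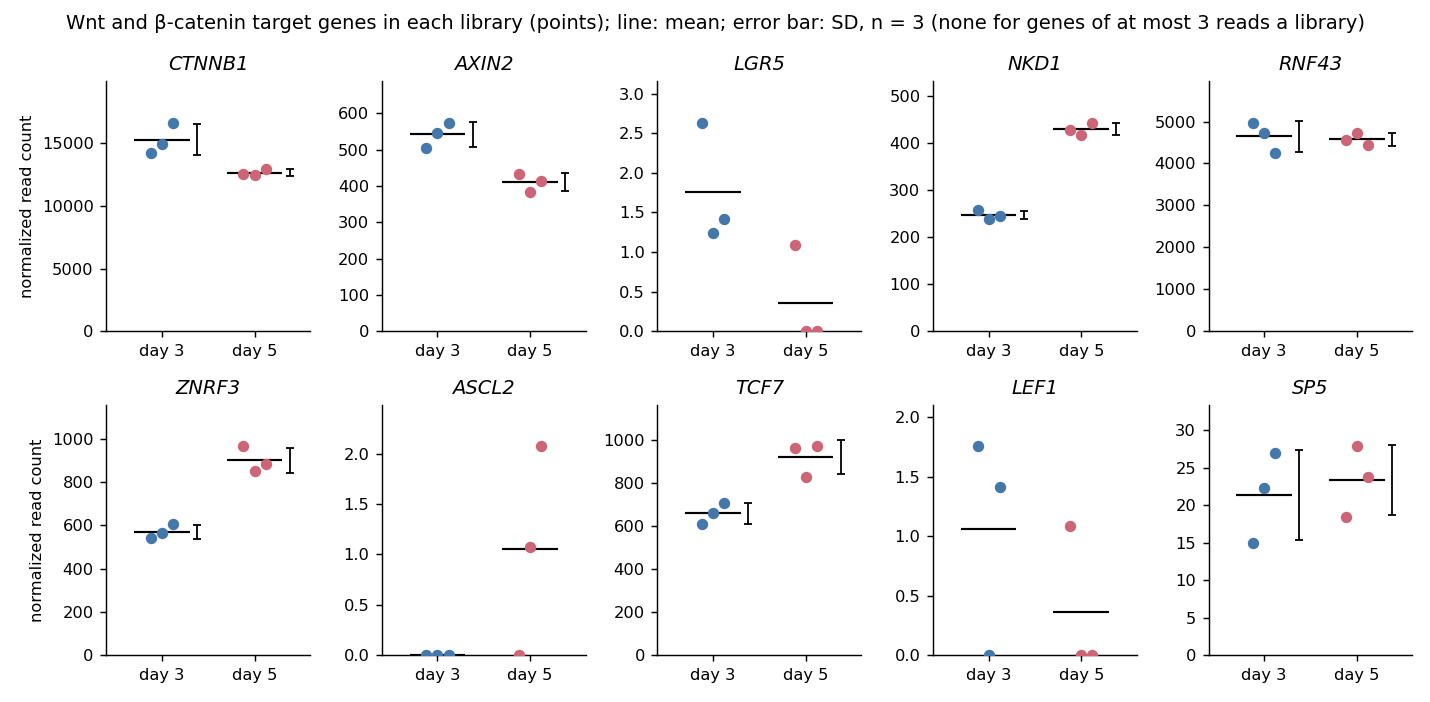
Normalized read count (y axis, linear, from 0, a separate scale for each gene) of the 10 genes in each of the 3 Day 3 (blue) and 3 Day 5 (red) libraries, with the mean as a line and the SD (n = 3) as an error bar. NKD1, ZNRF3 and TCF7 have all Day 5 points above Day 3, CTNNB1 and AXIN2 have all Day 5 points below, and LGR5, ASCL2 and LEF1 have at most 3 reads in any library.

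CTNNB1 itself was slightly lower at high cell density. Its normalized read counts were 14237, 14944 and 16640 on Day 3 and 12519, 12455 and 12949 on Day 5. All Day 5 libraries lay below all Day 3 libraries, and the Day 3 libraries were the more widely spread. The mean was 15273.5 ± 1234.7 (SD, n = 3) on Day 3 and 12641 ± 268 on Day 5, and the log2 fold change was -0.27 ± 0.09 (SE), with a 95% interval of -0.48 to -0.06 and an adjusted p of 0.0392 by limma. With 11544 to 24174 reads per library, counting error was smaller than the spread between libraries under the deposited scaling. Scaled to the reads of each library instead, the level per length was 36.1 ± 0.405 (SD, n = 3) on Day 3 and 31.3 ± 0.242 on Day 5. When library totals replaced the deposited scaling, the call held (log2 fold change -0.20, limma adjusted p = 0.0345). With the deposited scaling the call held without Day 3 replicate 1 (limma adjusted p = 0.0314) and was lost when any other library was left out. It was also lost with no filter on low values (0.166), with a replicate block (0.0725) and after the corrections for GC content, alone or with length, given below. The limma adjusted p was 0.0844 without Day 3 replicate 2, 0.0555 without Day 3 replicate 3, and 0.102, 0.11 and 0.0762 without Day 5 replicates 1, 2 and 3.

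AXIN2 is a scaffold of the destruction complex and a direct β-catenin target that dampens the pathway. Its normalized read counts were 505, 547 and 574 on Day 3 and 434, 384 and 413 on Day 5, and the groups did not overlap. The mean fell from 542 ± 34.9 (SD, n = 3) to 410.2 ± 25.2, a log2 fold change of -0.40 ± 0.09 (SE, 95% interval -0.62 to -0.18, limma adjusted p = 0.0106). Leaving out any single library left the limma adjusted p between 0.0124 and 0.0413. A gene that shares exon sequence on the same strand, ENSG00000266076, had 0 to 4.39 normalized reads.

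With the deposited scaling NKD1 and ZNRF3 were higher on Day 5 and RNF43 did not pass, and all 3 results changed with the correction for GC content and length described below, after which NKD1 and ZNRF3 did not pass and RNF43 was lower. NKD1 binds Dishevelled, the protein that relays the receptor signal, and inhibits it. Its normalized read counts were 257, 239 and 245 on Day 3 and 427, 418 and 443 on Day 5. Every Day 5 library stood well above every Day 3 library. The mean rose from 247 ± 9.45 (SD, n = 3) to 429 ± 12.7, which was 1.74 times the Day 3 mean, with a log2 fold change of 0.80 ± 0.07 (SE, 95% interval 0.61 to 0.98, limma adjusted p = 0.00043). This fold change stood at percentile 84.1 of all genes tested, the highest of the 7 members.

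ZNRF3 and RNF43 are membrane ubiquitin ligases of similar function that remove Frizzled receptors from the cell surface. ZNRF3 gave 541, 566 and 605 normalized reads on Day 3 and 966, 853 and 884 on Day 5, with no overlap. Its mean rose from 571 ± 32.5 (SD, n = 3) to 901 ± 58.4, a log2 fold change of 0.66 ± 0.09 (SE, 95% interval 0.44 to 0.87, limma adjusted p = 0.0014). RNF43 gave 4971, 4715 and 4249.9 on Day 3 and 4556, 4737 and 4436 on Day 5. Its libraries overlapped, and the means were 4645 ± 366 (SD, n = 3) and 4576 ± 152. The log2 fold change of RNF43 was -0.02 ± 0.09 (SE, limma adjusted p = 0.867), and its 95% interval of -0.24 to 0.20 allows a change of either sign. The sign turned to 0.05 when library totals replaced the deposited scaling, to 0.03 without Day 3 replicate 1 and to 0.003 without Day 5 replicate 3. ENSG00000285897, which shares exon sequence with RNF43 on the same strand, was not analysed here.

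LGR5, a receptor for R-spondin that marks intestinal stem cells and counteracts both ligases, was at the limit of detection. It had 3, 2 and 1 reads on Day 3 and 1, 0 and 0 reads on Day 5. A count of 0 still allows 3 reads in a library, which is worth 1.85 to 4.25 normalized reads on Day 3 and 3.11 to 3.25 on Day 5, for counting error only. No LGR5 library exceeded that floor, so no fold change is given.

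TCF7 and LEF1 are DNA-binding partners of β-catenin and are themselves reported targets. TCF7 gave 611, 661 and 707 normalized reads on Day 3 and 966, 831 and 972 on Day 5, with no overlap between the days. The mean was 660 ± 48.2 (SD, n = 3) on Day 3 and 923 ± 80.1 on Day 5, a log2 fold change of 0.48 ± 0.10 (SE, 95% interval 0.23 to 0.73, limma adjusted p = 0.00862). SKP1, which overlaps TCF7 exons on the opposite strand, was lower on Day 5, at 5838 to 6097 normalized reads on Day 3 and 3800 to 4287 on Day 5. The counting was described as strand-specific. LEF1 had 2, 0 and 1 reads on Day 3 and 1, 0 and 0 on Day 5. All LEF1 libraries were within the floor of 3 reads.

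SP5 and ASCL2 are transcription factors induced by Wnt signals, and ASCL2 sets the stem cell programme of the intestine. SP5, whose promoter with 3 core matches is printed above, gave 14.9, 22.3 and 26.9 normalized reads on Day 3 and 18.4, 27.9 and 23.8 on Day 5. The days overlapped almost completely, and the log2 fold change was 0.14 ± 0.25 (SE, limma adjusted p = 0.645). With 17 to 36 reads per library, the 95% interval of -0.46 to 0.75 leaves room for changes as large as that of ZNRF3. The sign turned to -0.08 without Day 3 replicate 1. ASCL2 had 0 reads in all Day 3 libraries and 0, 1 and 2 reads on Day 5, all within the floor.

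Fold changes across all genes moved with the base composition of the transcript. GC content was taken from the canonical transcript of GENCODE 44, and a value was found for 95.8% of the genes tested. In 4 groups of 4822 genes each, from the lowest to the highest GC content, the median log2 fold change was -0.36, -0.15, 0.13 and 0.52. The share called higher rose from 9.5% to 55.5% over these groups and the share called lower fell from 49.1% to 7.84%. The 7 tested members had a median GC content of 53.5%, against 48.2% for all genes, and ranged from 44.7% for CTNNB1 to 66.3% for SP5. The GC trend and the day of sampling cannot be told apart in these libraries.

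**Figure D2:**
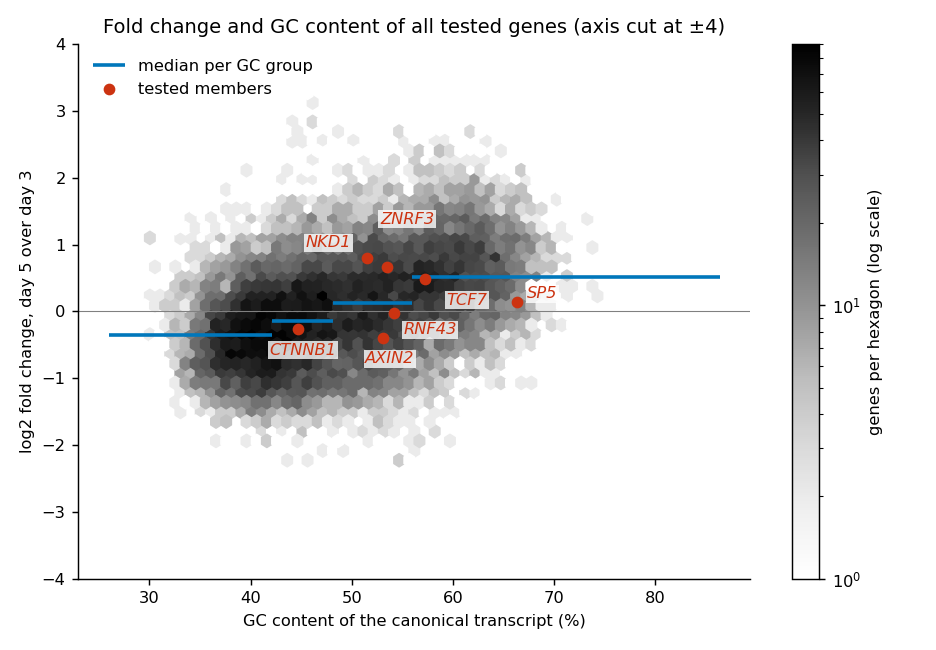
Log2 fold change of Day 5 over Day 3 (y axis, cut at ±4) against GC content of the canonical transcript in percent (x axis), with all tested genes as hexagons shaded by number on a log scale, the median of each of the 4 GC groups as a blue line and the 7 tested members as red points. The group medians climb from -0.36 to 0.52, and NKD1 and ZNRF3 lie above the median of their own group while the other 5 members lie below theirs.

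Within each library, level was fitted by loess on GC content and then on transcript length, a step chosen after the data were examined. With both fits removed, the rises of NKD1, ZNRF3 and TCF7 no longer passed. Fold changes were not grouped by length as they were by GC content. The log2 fold change of NKD1 became 0.14 (95% interval -0.05 to 0.32, limma adjusted p = 0.184). That of ZNRF3 became 0.16 (-0.02 to 0.35, limma adjusted p = 0.125) and that of TCF7 became 0.04 (-0.18 to 0.26, limma adjusted p = 0.736). With GC content alone removed, NKD1 kept 0.74 and ZNRF3 kept 0.52 and both passed, with limma adjusted p of 0.000786 and 0.00299, whereas TCF7 at 0.16 did not (limma adjusted p = 0.196). With length alone removed, all 3 passed, at 0.39 for NKD1, 0.40 for ZNRF3 and 0.34 for TCF7. The canonical NKD1 transcript is 17039 bases long, against a median of 2360 bases for all genes.

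The same corrections left AXIN2 lower. Its log2 fold change was -0.73 (95% interval -0.92 to -0.54, limma adjusted p = 0.00125) after both corrections, -0.53 after GC content alone and -0.58 after length alone. RNF43 became lower after both, at -0.42 (-0.67 to -0.17, limma adjusted p = 0.0185), but did not pass after either alone. CTNNB1 stood at -0.23 after both corrections (limma adjusted p = 0.057) and at -0.07 after GC content alone (limma adjusted p = 0.521). SP5 changed sign to -0.49 after both (limma adjusted p = 0.137). After both corrections, 0 members were higher and 2 were lower, beside 23.9% higher and 24.9% lower of 19288 genes under the same corrections. At an unadjusted p under 0.05 by limma the numbers were 0 and 3, with no share of all genes counted at that threshold. On the uncorrected reads edgeR called 3 members higher and 2 lower, beside 6245 higher and 6035 lower of 20129 genes. DESeq2 gave the same 3 and 2, beside 5831 and 5279 of 25512 genes.

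**Figure D3:**
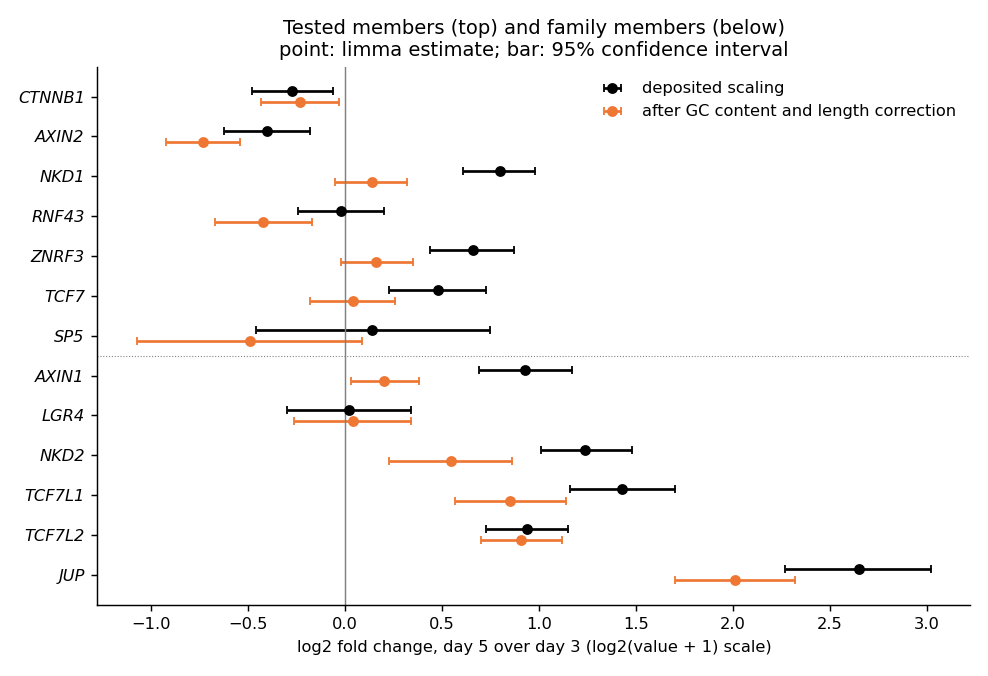
Log2 fold change of Day 5 over Day 3 (x axis) for the 7 tested members and 6 family members (rows), as limma estimates with 95% confidence intervals, with the deposited scaling (black) and after correction for GC content and length (orange). AXIN2 lies left of 0 in both, NKD1, ZNRF3 and TCF7 have intervals that include 0 after correction, and NKD2, TCF7L1, TCF7L2 and JUP lie right of 0 in both.

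Close relatives were set beside AXIN2, NKD1, LGR5, TCF7, LEF1 and CTNNB1. AXIN1, the constitutive scaffold of the destruction complex, gave 407, 414 and 482 normalized reads on Day 3 and 849, 849.9 and 777 on Day 5. Its log2 fold change of 0.93 ± 0.10 (SE, limma adjusted p = 0.000626) was opposite in sign to that of AXIN2, although after both corrections it was 0.20 and did not pass (limma adjusted p = 0.0612). NKD2, the relative of NKD1, rose from 123 ± 12.3 (SD, n = 3) to 292 ± 7.45, which was 1.24 on the log2 scale (limma adjusted p = 0.000287). It was 0.55 after both corrections and still passed. LGR4, the R-spondin receptor related to LGR5, was at 373 ± 12.3 and 381 ± 60.9 a difference of 0.02 on the log2 scale (limma adjusted p = 0.915), so R-spondin receptor transcript in these cells was mostly LGR4. LGR6 had 3 to 10 reads per library and did not pass the filter.

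Among TCF/LEF factors, TCF7L2, the main such factor of intestinal epithelium, gave 6767, 6703 and 5892 normalized reads on Day 3 and 12303, 12499 and 12320.2 on Day 5. It rose by 0.94 ± 0.09 on the log2 scale (SE, limma adjusted p = 0.000399). TCF7L1, which acts mainly as a repressor, rose by 1.43 ± 0.11 (limma adjusted p = 0.000281), from 304 ± 23.9 (SD, n = 3) to 824 ± 88.2. Both rises remained after both corrections, at 0.91 for TCF7L2 and 0.85 for TCF7L1. JUP encodes γ-catenin, the close relative of β-catenin at cell junctions, and rose by 2.65 ± 0.15 (limma adjusted p = 0.00018). Its normalized read counts were 1320 to 1935 on Day 3 and 9894 to 10797 on Day 5, where CTNNB1 was lower.

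Ratios of levels per length within a library do not depend on the scaling between libraries. They were not corrected for GC content or length in the way given above. GC content was 53.1% for AXIN2 and 63.5% for AXIN1, and 44.7% for CTNNB1 and 61.5% for JUP. There were 9 such ratios and shares, chosen after the values were seen, and 3 libraries against 3 cannot give an exact two-sided permutation p under 0.1. AXIN2 over AXIN1 was 1.80, 1.92 and 1.73 on Day 3 and 0.741, 0.655 and 0.772 on Day 5. ZNRF3 over RNF43 rose from a mean of 0.112 ± 0.0155 (SD, n = 3) to 0.179 ± 0.0146, and NKD1 over AXIN2 from 0.137 ± 0.0135 to 0.314 ± 0.0168. CTNNB1 over JUP went from 3.91 ± 0.536 to 0.515 ± 0.0329. With the canonical transcript in place of all exons, a choice made after seeing the data, CTNNB1 over JUP was 8.91 ± 1.22 and 1.17 ± 0.0749, so which of them had the higher level on Day 5 depends on the length used. AXIN2 over AXIN1 was then 1.09 ± 0.0569 on Day 3 and 0.433 ± 0.0363 on Day 5. The change between days in a ratio of 2 genes is the same with either length. TCF7 made up 6.02% ± 0.793 of the summed TCF/LEF level on Day 3 and 4.33% ± 0.376 on Day 5, while TCF7L2 held 87.7% ± 1.48 and 86.9% ± 1.07. With canonical lengths the share of TCF7 was 10.7% ± 1.34 and 7.81% ± 0.658. Libraries of both days did not overlap for 7 of the 9, including NKD1 over NKD2 and the share of TCF7L1, and each of these had an exact permutation p of 0.1 (0.129 after Benjamini-Hochberg adjustment). The shares of TCF7L2 and LEF1 overlapped, with an exact permutation p of 0.4.

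**Figure D4:**
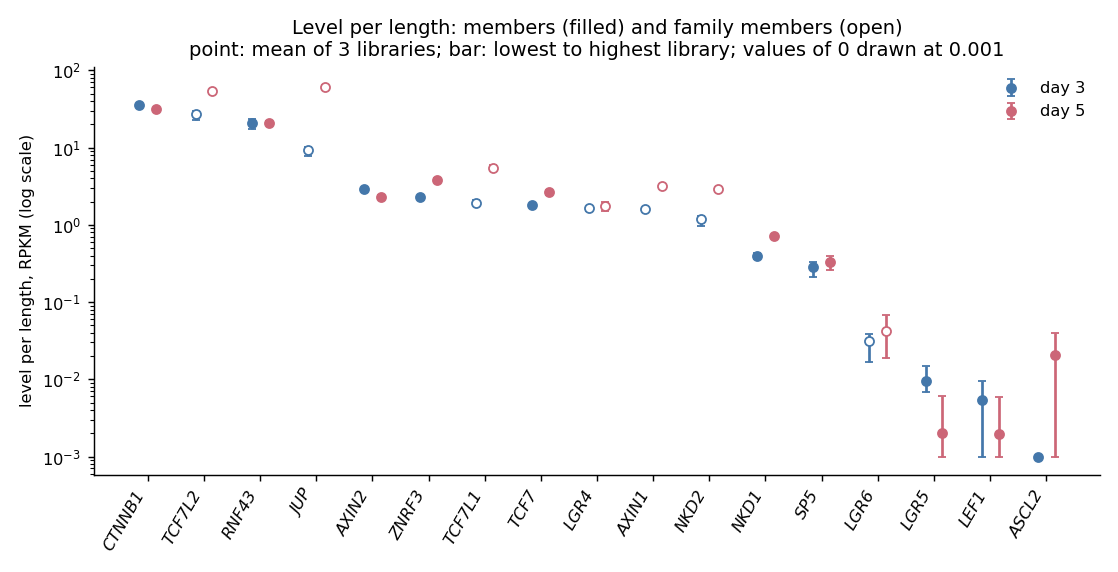
Level per length in RPKM (y axis, log scale) of the 10 members (filled) and 7 family members (open), with the mean of the 3 Day 3 libraries in blue and of the 3 Day 5 libraries in red and bars from the lowest to the highest library. CTNNB1 and RNF43 are the most abundant members on both days, and LGR5, LEF1 and ASCL2 lie far below the others, with values of 0 drawn at 0.001.

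By level per length, with all annotated exons of a gene counted, CTNNB1 was the most abundant member. It stood at 36.1 ± 0.405 RPKM, reads per kilobase of exon scaled to the reads of the library (SD, n = 3), on Day 3 and 31.3 ± 0.242 on Day 5, and RNF43 came second at 20.5 ± 2.99 and 21.1 ± 0.943. On Day 3 they were followed by AXIN2 (2.90 ± 0.0914), ZNRF3 (2.27 ± 0.0430), TCF7 (1.82 ± 0.0473), NKD1 (0.397 ± 0.0367) and SP5 (0.284 ± 0.0640), and no neighbours in that order overlapped. On Day 5 the order below RNF43 was ZNRF3 (3.76 ± 0.261), TCF7 (2.66 ± 0.215), AXIN2 (2.30 ± 0.142), NKD1 (0.721 ± 0.0126) and SP5 (0.328 ± 0.0669). The libraries of TCF7 and AXIN2 overlapped on Day 5, so their order there is not settled. The place of TCF7 depends on the gene length used: with the canonical transcript in place of all exons it held place 3 on both days, at 5.58 ± 0.145 and 8.18 ± 0.659 RPKM (SD, n = 3), and AXIN2 held place 4 and then place 5.

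The rest of the pathway was described, and not tested as a set, from 8 lists chosen with earlier results of these data known. The lists hold none of the 10 members and 132 other genes in all. Of these, 104 were tested, and 74 were higher, 9 lower and 21 did not pass the test, or 79.8% called against the 56.9% of all genes. Their median log2 fold change was 0.88. After both corrections the numbers were 58 and 7, or 55.8% higher and 6.73% lower, with a median of 0.38, beside 23.9%, 24.9% and a median of -0.01 for all genes. The medians of the single lists ran from 0.50 to 2.03, beside 0.14 for the members, which is the value of SP5. After both corrections the medians of the single lists ran from 0.16 to 1.68, beside -0.23 for the members. Median GC content of the single lists ran from 47.6 to 59.2% and median transcript length from 2430 to 5177 bases. For all genes these were 48.2% and 2360 bases.

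At the start of the pathway, 8 of 13 tested Wnt ligands were higher and the other 5 did not pass. The share called was 61.5% for ligands, 75% for secretion and R-spondins, 73.3% for receptors and 66.7% for inhibitors. Of all genes tested 56.9% were called, 29.3% higher and 27.6% lower. WNT7A had 0, 7 and 1 reads on Day 3 and 15, 16 and 17 on Day 5 (limma adjusted p = 0.00608), and WNT7B rose from 80.6 ± 20.8 normalized reads (SD, n = 3) to 337 ± 12.1, which was 2.08 on the log2 scale (limma adjusted p = 0.000403). Of 4 tested genes for Wnt secretion and R-spondins, 3 were higher, including WLS, the carrier that brings Wnt proteins to the surface (0.68, limma adjusted p = 0.000715), and RSPO4 (1.73, limma adjusted p = 0.0116), which no longer passed after both corrections (limma adjusted p = 0.0622). Among 15 receptors and co-receptors, which include the Frizzled receptors that RNF43 and ZNRF3 remove, 8 were higher and 3 lower. The number lower was 1 after GC content alone was removed. After both corrections 6 were higher and 3 lower, or 40% and 20%, beside 23.9% and 24.9% of all genes. FZD7 rose by 1.63 and the pseudokinase PTK7 by 1.43, whereas FZD6 fell by 0.81 and FZD3 fell by 0.46 on the log2 scale (limma adjusted p = 0.000336, 0.000157, 0.000428 and 0.00311). FZD3 did not pass after GC content alone was removed (limma adjusted p = 0.836), but was lower after both corrections, at -0.57 (limma adjusted p = 0.00324). Of 6 tested secreted and membrane inhibitors, 4 were higher, among them NOTUM, an enzyme that inactivates Wnt proteins and a reported target itself (1.39, limma adjusted p = 0.00112), and the DKK receptor KREMEN1 (1.32, limma adjusted p = 0.00147).

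Of 25 tested genes of Dishevelled and the destruction complex, to which AXIN2 and NKD1 belong by function, 17 were higher and 5 lower. The share called was 88%, beside 56.9% of all genes tested (29.3% higher and 27.6% lower). After both corrections 8 were higher and 3 lower, or 32% and 12%, beside 23.9% and 24.9% of all genes. The number lower was 1 after GC content alone, 3 with library totals and 2 with no filter or a replicate block. It was also 2 without Day 3 replicate 2, Day 5 replicate 1 or Day 5 replicate 2. The largest rises were those of NKD2, above, and of APC2, a relative of APC (1.13, limma adjusted p = 0.00688), which turned to -0.12 after both corrections. Like AXIN2, the scaffold gene APC and the APC-binding AMER1 were lower on Day 5. APC fell by 0.49 (limma adjusted p = 0.00271) and AMER1 fell by 0.58 (limma adjusted p = 0.00842) on the log2 scale. APC did not pass after GC content alone was removed (limma adjusted p = 0.275), but was lower after both corrections, at -0.60 (limma adjusted p = 0.0028). AMER1 passed under every correction.

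Among 18 tested nuclear factors of β-catenin, which include the relatives of TCF7, 15 were higher and 1 was lower. The share called was 88.9%, beside 56.9% of all genes tested (29.3% higher and 27.6% lower). The coactivator BCL9L rose by 1.62 (limma adjusted p = 0.00023), beside TCF7L1, and CDC73, a β-catenin-binding subunit of the elongation complex PAF1C, fell by 0.29 on the log2 scale (limma adjusted p = 0.0126). That fall did not pass with library totals (limma adjusted p = 0.0765), and CDC73 stood at 0.15 after GC content alone was removed. All 5 tested adhesion partners of β-catenin were higher, with a median of 2.03 and of 1.68 after both corrections. CDH1, the E-cadherin gene, rose from 637 ± 57.1 normalized reads (SD, n = 3) to 3940.0 ± 133, which was 2.63 on the log2 scale (limma adjusted p = 0.0001), beside JUP. CDH1 is also counted among the epithelial markers given above.

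Of 18 other reported Wnt targets tested, 14 were higher and none was lower by limma, with a median log2 fold change of 1.08. The share called was 77.8%, beside 56.9% of all genes tested (29.3% higher and 27.6% lower). BMP4, at -0.39 (limma adjusted p = 0.0601), was lower at an unadjusted p of 0.0353 by limma and was the 1 gene of the list that edgeR and DESeq2 called lower. PLAUR, the urokinase receptor, rose by 2.61 (limma adjusted p = 8.27e-05) and the adhesion molecule L1CAM by 2.38 (limma adjusted p = 0.000189). Besides BMP4, the genes that did not pass were MMP7 (-0.62, limma adjusted p = 0.217), RGMB (0.072, limma adjusted p = 0.644) and TNFRSF19 (-0.019, limma adjusted p = 0.938). PROX1, SMOC2 and TDGF1 were below the filter. MYC (1.03), CCND1 (1.23), CD44 (1.13) and SOX9 (2.24), named after their values were seen because they are often cited as targets, were higher. These genes respond to many other signals too. After both corrections 13 of the 18 were higher and 1 lower, or 72.2% and 5.56%, beside 23.9% and 24.9% of all genes.

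**Figure D5:**
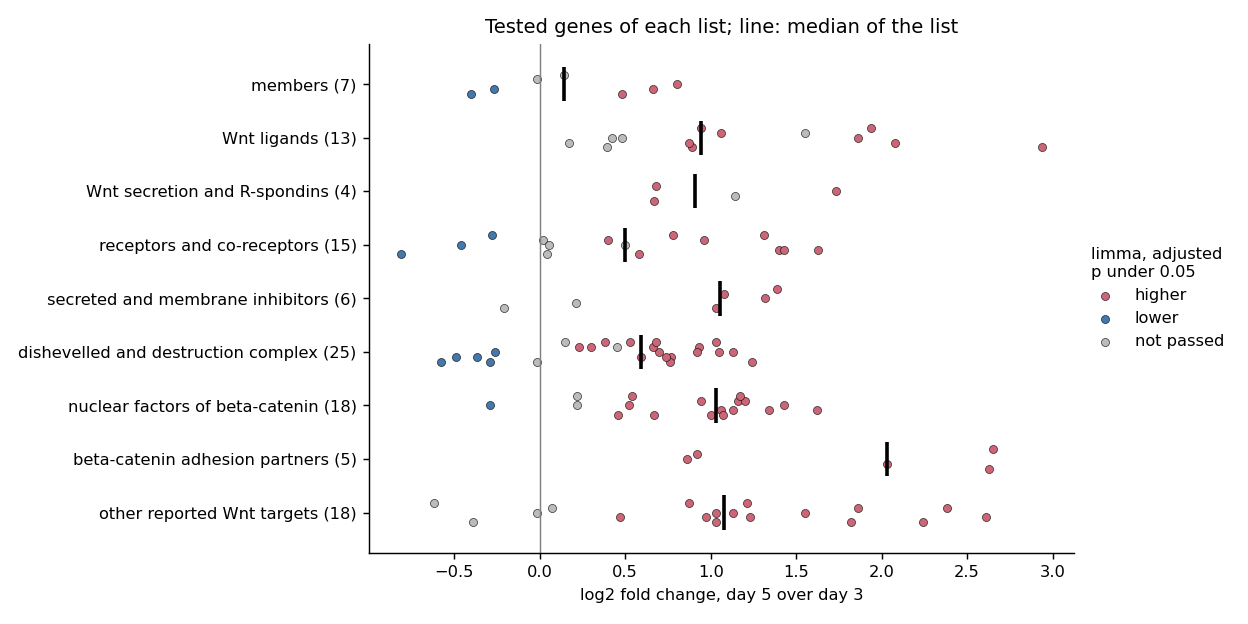
Log2 fold change of Day 5 over Day 3 (x axis) of every tested gene in the member list and 8 other pathway lists (rows, number tested in brackets), coloured by whether the limma adjusted p was under 0.05, with the median of each list as a line. The members range from -0.40 to 0.80 around a median of 0.14, while the adhesion partners have the highest median, 2.03.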

How the data were processed

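Wild-type HCT116 cells on Day 3 and Day 5 were compared, with 3 whole transcriptome libraries per day, grouped from the sample titles. The authors prepared ribosome-depleted libraries with molecular identifiers and, per their methods, mapped reads strand-specifically to Ensembl genes on hg38 in CLC Genomics Workbench with TMM scaling. The submitters' processing notes also name FastQC 0.11.8, MultiQC 1.7 and bcl2fastq. The deposited values are a normalized signal, 1 for every gene in every library. They were whole multiples of the value of 1 read, within 0.02 reads, for 100% of entries, so reads were recovered. The table also gives the authors' fold changes and p-values, in columns headed as DESeq2 writes them, which were not used. The small RNA tables hold none of the 10 genes and were not used.

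limma 3.58.1 in R 4.3.3 was fitted to log2(value + 1) for genes that reached 10 in 3 or more libraries. Adjustment was by Benjamini-Hochberg over all genes tested, with a threshold of 0.05. Intervals are 95%. P-values measure the spread between these libraries. Alternatives were library totals, no filter, the smaller pseudocount 0.1, a block on replicate number, edgeR 4.0.16 and DESeq2 1.42.0 on recovered reads, leaving out each library and a 2-fold minimum. Corrections for GC content, for length and for both were added after seeing the data. The limma step was tested on simulated counts. It recovered 60.6% of 193 genes changed 2-fold, with 6 false calls, and 89.7% of 195 genes changed 4-fold, with 16. Smaller changes, such as those of the members, were not simulated. The simulation changed few genes and held no GC trend, unlike these data. Loci and lengths came from GENCODE 44, which is not the Ensembl release on which the authors counted reads. Levels per length therefore join counts and lengths of different gene models. Promoters came from RefSeq. Python 3.11.15, pandas 2.3.3, numpy 2.4.6, scipy 1.17.1 and matplotlib 3.10.9 were used.

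The 10 genes and all lists were chosen with earlier results of these data known. Genes named beside them were their closest relatives and, per list, the 2 largest rises and 2 largest falls among called genes whose libraries did not overlap, with exceptions stated.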

Additional observations from a re-analysis of the deposited data

How the results depend on the processing

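The number of members higher on Day 5 was 3 with library totals, no filter, a pseudocount of 0.1, the replicate block, edgeR, DESeq2, length correction and each library left out, and 2 after GC content correction. It was 0 after correction for both GC content and length and 0 with a 2-fold minimum. The number lower was 2 in the main analysis, 1 after GC content correction, 0 with no filter on low values (2 at an unadjusted p under 0.05 by limma, and 2 by edgeR and by DESeq2), 0 with a 2-fold minimum (0 unadjusted and 0 by edgeR and DESeq2), and 1 to 2 with a library left out. Genes called among all tested fell from 11450 to 3589 with a 2-fold minimum, and lay between 9235 and 12280 under the other alternatives, with 9780 to 11300 when a library was left out. The higher share of calls was 51.5% in the main analysis and 56.2% with library totals.

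Same-numbered libraries of both days did not deviate together (correlations of -0.0112, 0.0343 and 0.0234 over 20129 genes), so the values show no pairing by replicate number. The labels do not say whether same-numbered cultures were handled together. With the replicate number as a block, 3 members were higher and 1 lower, as CTNNB1 had an adjusted p of 0.0725 by limma, and 10533 genes were called in all.

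Signs turned for RNF43 with library totals (0.048), without Day 3 replicate 1 (0.031) and without Day 5 replicate 3 (0.003), in a range of -0.082 to 0.031 with a library left out. They turned for SP5 without Day 3 replicate 1 (-0.083, in a range up to 0.322), after GC content correction (-0.52) and after both corrections (-0.49). They also turned for APC2 after both corrections (-0.12) and for CDC73 after GC content correction (0.15). None of these turned values passed the limma threshold. Leaving the 2-fold minimum aside, AXIN2 kept its direction under all 15 other alternatives and lost its call only with no filter (limma adjusted p = 0.0629). Of the 21 named pathway genes, 16 kept their call under every such alternative that gave them a value. The cause of these shifts was not tested. At 0 to 3 reads per library, LGR5, LEF1 and ASCL2 could not be compared at this depth.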
